A study of Homo sapiens with 9 samples.

Results

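A set of 10 genes of tumour immune evasion were followed in Hep3B cells, a human liver cancer line, by the number of RNA sequencing reads counted on each gene. They were picked by symbol as 10 of the 60683 genes listed, and all of them were found. CD274, PDCD1LG2, CD276, VTCN1, CD47 and LGALS9 encode ligands that hold back immune cells, and NT5E, ENTPD1, ADORA2B and ADA encode enzymes and a receptor of the extracellular adenosine pathway. The study asked how 32-134D, a small molecule developed as an inhibitor of hypoxia-inducible factors (HIFs), alters the expression of genes that respond to low oxygen. Cells received the vehicle DMSO at 20% O2, DMSO at 1% O2, or 32-134D at 1% O2, each for 24 hours and each in 3 biological replicates of the same line, and no libraries of 32-134D at 20% O2 are analysed here. The sample labels give no dose. These groups are called normoxic vehicle, hypoxic vehicle and 32-134D.

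Checkpoint ligands are proteins that tumour cells display or release and that engage inhibitory receptors on T cells, natural killer cells or macrophages. In the adenosine pathway, ATP released by stressed cells is stripped of its phosphates by ENTPD1 (also called CD39) and then by NT5E (CD73), and the adenosine formed acts on receptors such as ADORA2B and is removed by ADA or taken up by transporters. HIFs are dimers that accumulate when oxygen is scarce and bind short DNA elements near the genes they activate, and NT5E, ADORA2B and CD274 are known from other cell types as HIF-responsive genes.

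Promoter sequence is shown for the 3 members that passed the test in both main comparisons, so that the letters a HIF dimer could bind can be seen beside the read counts described later. Each run is the 250 bases upstream of the RefSeq start on GRCh38.p14, read 5′ to 3′ on the + strand, which is the coding strand of all 3 genes, and the core HIF motifs ACGTG and GCGTG are in capitals where they occur on either strand. They lie at chr9:5450292-5450541 for CD274, chr6:85449833-85450082 for NT5E and chr17:15944880-15945129 for ADORA2B.
CD274: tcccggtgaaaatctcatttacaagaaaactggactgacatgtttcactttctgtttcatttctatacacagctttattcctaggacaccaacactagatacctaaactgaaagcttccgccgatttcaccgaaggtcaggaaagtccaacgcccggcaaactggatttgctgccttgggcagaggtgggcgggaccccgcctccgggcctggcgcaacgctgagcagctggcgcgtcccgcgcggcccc
NT5E: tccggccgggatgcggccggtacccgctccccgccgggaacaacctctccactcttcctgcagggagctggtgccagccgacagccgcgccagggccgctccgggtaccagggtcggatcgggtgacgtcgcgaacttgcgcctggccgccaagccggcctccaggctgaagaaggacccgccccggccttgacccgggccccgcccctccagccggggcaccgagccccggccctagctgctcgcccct
ADORA2B: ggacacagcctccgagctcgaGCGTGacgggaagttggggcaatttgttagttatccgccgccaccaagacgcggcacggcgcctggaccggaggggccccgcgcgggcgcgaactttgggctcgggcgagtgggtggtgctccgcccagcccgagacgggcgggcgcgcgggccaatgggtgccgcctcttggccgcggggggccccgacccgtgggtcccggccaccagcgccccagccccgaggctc

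RefSeq windows of 300 bases, 250 before and 50 after the start, were at hand for 9 of the members, 14 windows in all, and none was for PDCD1LG2. The motifs were searched on both strands, on which matches may share bases. A motif stood in 7 of these 14 windows, 1 window in each of 7 members, and in 48.45% of 35116 such windows over all genes, 21.41% with ACGTG and 36.54% with GCGTG, so the members' share is near that of all genes. The CD274 window held neither. The ADORA2B window held 1 GCGTG, whose first base lay at -229 from the start. The NT5E window held 1 GCGTG on the reverse strand at 44 bases after the start, beyond the stretch printed above. The CD47 window held the most of the members, with 1 ACGTG at -223 and GCGTG at -203, -78 and -16. Motifs also stood at -21 for ADA, at -56 for VTCN1, at -226 in 1 of 2 windows for CD276, and at -224 and -185 in 1 of 5 windows for ENTPD1. A match describes these letters only and was not linked to binding here.

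Total counts ran from 6013980 to 40549699 per library, and 22672 genes with a summed count of at least 10 were tested, among them 9 of the 10 members. PDCD1LG2 had 0 counts in every library and was not tested. Changes were estimated by edgeR's quasi-likelihood test, with all 9 libraries in the same model, and a call needed both a false discovery rate (FDR, after Benjamini and Hochberg) under 0.05 and a change of more than 1.5-fold. CA9 and ANGPTL4, HIF targets used as a check of the labels, had log2 fold changes of 4.38 and 5.43 in hypoxic against normoxic vehicle and of -3.36 and -3.85 in 32-134D against hypoxic vehicle, and all 4 passed. Normoxic vehicle replicate 2, the smallest library, and 32-134D replicate 3 lay apart from their groups on the second principal component, at -75.1 against 11.8 and 15.9, and at 47.0 against 14.2 and 16.2. The 8 hepatocyte-derived markers summed to 16643 to 17959 CPM in normoxic vehicle, 11615 to 14459 in hypoxic vehicle and 11157 to 16543 in 32-134D, where CPM is a gene's count scaled to a library of fixed size. In the same order APOB was at 4486, 405 and 3519 CPM on average, and ALB at 9283, 9535 and 8114. Under hypoxia APOB and AFP were called lower and 0 of the 8 higher. With 32-134D against hypoxic vehicle APOB was called higher, and TTR and FGB lower. TTR and FGB varied widely between the 32-134D libraries, at 27.4 ± 15.3 and 24.5 ± 15.3 CPM (SD). In hypoxic vehicle they were at 52.3 ± 4.77 and 48.8 ± 1.89 CPM, so the size of both differences is uncertain. Of 14 immune markers 8 had at most 3 counts in every library, CD3E, CD163 and NKG7 had 0, and the list summed to 47.5 to 53.7 CPM in normoxic vehicle, 21.9 to 25.2 in hypoxic vehicle and 31.8 to 42.7 in 32-134D. Of 7 endothelial and stromal markers 3 had at most 3 counts in every library, VWF had 0, and the sums were 33.9 to 38.1, 13.7 to 14.8 and 29.4 to 31.7 CPM. The largest part of these sums was PDGFRB, at 27.2, 10.1 and 22.0 CPM on average. The part of all these markers in the results on the members was not tested.

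Members differed widely in level. CPM with TMM scaling, divided by the exon length in kilobases (CPM per kb) allow genes to be compared. In normoxic vehicle CD276 was the most abundant member at 25.0 ± 1.54 CPM per kb (SD, n = 3), followed by NT5E at 9.28 ± 0.305, CD47 at 4.03 ± 0.198, ADA at 1.99 ± 0.135 and ADORA2B at 1.51 ± 0.269, and the libraries of each of these neighbours did not overlap. CD274 at 0.0754 ± 0.0342, ENTPD1 at 0.0744 ± 0.0263, LGALS9 at 0.0451 ± 0.0428 and VTCN1 at 0.0416 ± 0.0484 CPM per kb followed, each overlapping its neighbour. These 4 genes had between 45 and 178 reads in all over the 9 libraries, so their values carry a large counting error. In hypoxic vehicle ADORA2B stood next to CD276, at 9.33 ± 0.738 CPM per kb, and NT5E had moved below ADA, at 1.94 ± 0.324 against 2.58 ± 0.433 with overlapping libraries. In 32-134D NT5E was again next to CD276, at 7.48 ± 0.975 CPM per kb, where its libraries overlapped those of CD47 at 6.53 ± 2.06, and ADORA2B at 3.42 ± 0.171 overlapped ADA at 3.46 ± 1.81. These are levels of RNA pooled over a culture, in which fewer expressing cells and less RNA per cell cannot be told apart.

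**Figure D1:**
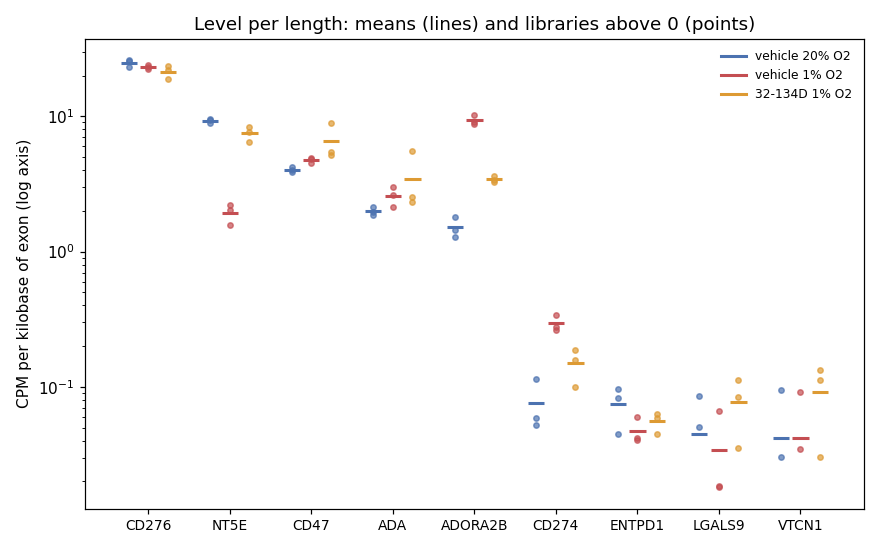
Level of the 9 detected members in CPM per kilobase of exon, on a log axis, in normoxic vehicle (blue), hypoxic vehicle (red) and 32-134D (orange), with lines for the means of 3 libraries and points for libraries above 0. CD276 leads in every group at 21.4 to 25.0, while NT5E drops to 1.94 and ADORA2B climbs to 9.33 in hypoxic vehicle.

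Hypoxia moved members in both directions. In hypoxic against normoxic vehicle, CD274 and ADORA2B were called higher and NT5E was called lower, 3 of the 9 members tested, where 39.7% of all genes tested were called, 19.5% higher and 20.3% lower. With 32-134D at 1% O2 against hypoxic vehicle the calls on these 3 genes stood the other way round, NT5E higher and CD274 and ADORA2B lower, and 29.9% of all genes were called, 16.2% higher and 13.7% lower. In both comparisons the number called is close to the share of all genes, and it sets the members apart from other genes in neither. Both comparisons use the same hypoxic vehicle libraries, so their values are given side by side and not as independent evidence. Against normoxic vehicle, 32-134D left 2 of the 9 members called, ADORA2B and CD47, both of them higher, where 3.52% of all genes were called. The median log2 fold change of the 9 members was 0.00 in hypoxic against normoxic vehicle, 0.41 in 32-134D against hypoxic vehicle and 0.69 in 32-134D against normoxic vehicle, beside 0.00, -0.01 and 0.00 over all genes. The latter 2 medians rested on 32-134D replicate 3, without which they were 0.16 and 0.27.

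**Figure D2:**
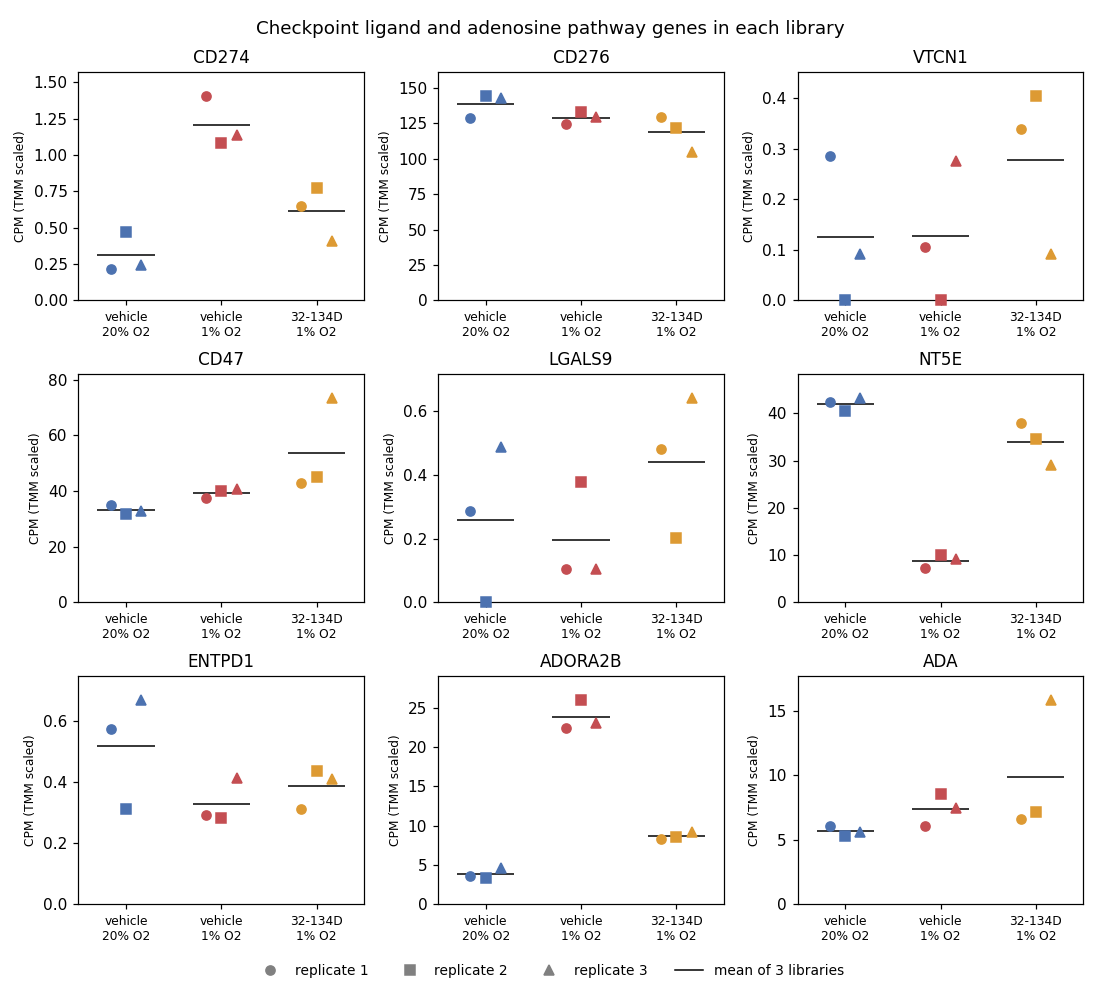
TMM-scaled CPM of the 9 detected members in each library, with 3 replicates per group as symbols and group means as lines, each panel on its own linear axis from 0. CD274 and ADORA2B are highest in hypoxic vehicle (1.08 to 1.40 and 22.4 to 25.9 CPM), NT5E is lowest there (7.18 to 10.0 CPM), and replicate 3 of 32-134D stands out in CD47 (73.3 CPM) and ADA (15.8 CPM).

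CD274 (ENSG00000120217, chromosome 9, 5450503 to 5470566, + strand) encodes PD-L1, the ligand by which tumour cells engage the receptor PD-1 on T cells. Its reads numbered 3, 3 and 8 in normoxic vehicle replicates 1 to 3, 53, 23 and 33 in hypoxic vehicle, and 23, 23 and 9 in 32-134D. Scaled for depth these were 0.215, 0.471 and 0.243 CPM, then 1.40, 1.08 and 1.14 CPM, then 0.652, 0.774 and 0.412 CPM. Every hypoxic vehicle library was thus above every library of the other groups, and normoxic vehicle and 32-134D overlapped. CD274 rose 4.50-fold in hypoxic against normoxic vehicle, a log2 fold change of 2.17 ± 0.42 (SE, edgeR FDR = 0.000219). It fell by 0.96 on the log2 scale with 32-134D (SE 0.30, edgeR FDR = 0.0144). This second call rested on few reads: it was lost with DESeq2 (FDR = 0.0625), without hypoxic vehicle replicate 1 (FDR = 0.0698) and without 32-134D replicate 1 (FDR = 0.0502). In 32-134D against normoxic vehicle the log2 fold change was 1.21 (95% interval 0.27 to 2.15, edgeR FDR = 0.0844), not called, although without 32-134D replicate 3 it was 1.40 and called (FDR = 0.0367).

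PDCD1LG2 (ENSG00000197646, chromosome 9, 5510570 to 5571254, + strand), which encodes PD-L2, the other ligand of PD-1, was not seen in any library. Its 0 counts allow a level of up to 0.471 TMM-scaled CPM in the smallest library and 0.0795 in the largest, the level that 3 counts would give, so that PDCD1LG2 RNA was not detectable at this depth. These limits cover counting error only.

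CD276 (ENSG00000103855, chromosome 15, 73683966 to 73714518, + strand), a B7-family ligand found on many solid tumours, varied little between the groups. It was at 128, 144 and 143 CPM in normoxic vehicle, 125, 133 and 129 CPM in hypoxic vehicle, and 130, 122 and 105 CPM in 32-134D. The groups overlapped in all 3 comparisons. Its log2 fold change was -0.10 under hypoxia (95% interval -0.28 to 0.08, edgeR FDR = 0.328) and -0.12 with 32-134D against hypoxic vehicle (95% interval -0.29 to 0.06, edgeR FDR = 0.273), the latter changing sign to 0.07 when counts were scaled by total library size. Changes of 1.5-fold lie outside both intervals. Against normoxic vehicle, 32-134D gave -0.22 (95% interval -0.40 to -0.04, edgeR FDR = 0.120).

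VTCN1 (ENSG00000134258, chromosome 1, 117143587 to 117210960, - strand), another B7-family ligand, was near the limit of detection. It had 4, 0 and 3 reads in normoxic vehicle, 4, 0 and 8 in hypoxic vehicle, and 12, 12 and 2 in 32-134D. The groups overlapped, no comparison was called, and the interval under hypoxia, -2.16 to 2.16 on the log2 scale, leaves large changes either way unresolved. With 32-134D against hypoxic vehicle the log2 fold change of VTCN1 was 1.08 (95% interval -0.64 to 2.80, edgeR FDR = 0.270).

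CD47 (ENSG00000196776, chromosome 3, 108043094 to 108091862, - strand) encodes the signal that restrains phagocytosis through SIRPA on macrophages. It was at 34.9, 31.7 and 32.8 CPM in normoxic vehicle, 37.4, 40.0 and 40.5 CPM in hypoxic vehicle, and 42.8, 45.1 and 73.3 CPM in 32-134D. The groups did not overlap in any comparison, and 32-134D replicate 3 was far above the other libraries. CD47 was not called under hypoxia, with a log2 fold change of 0.24 (95% interval -0.10 to 0.58, edgeR FDR = 0.220). With 32-134D against hypoxic vehicle it was 0.45 ± 0.15 (SE), which had an edgeR FDR of 0.0265 and a fold of 1.36, under the fold threshold. Against normoxic vehicle CD47 was called higher with 32-134D, by 0.69 ± 0.16 (SE, edgeR FDR = 0.0129), a 1.61-fold difference. Without 32-134D replicate 3 this value was 0.40 with an FDR of 0.00132, under the fold threshold, and the FDR rose to 0.0636 and 0.0682 without normoxic vehicle replicate 2 or 3, so the call depended on single libraries.

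LGALS9 (ENSG00000168961, chromosome 17, 27629798 to 27649560, + strand) encodes galectin-9, a secreted lectin that binds the receptor TIM-3. It had 4, 0 and 16 reads in normoxic vehicle, 4, 8 and 3 in hypoxic vehicle, and 17, 6 and 14 in 32-134D. The groups overlapped, and none of the comparisons was called. The log2 fold change of LGALS9 was -0.95 under hypoxia (95% interval -2.53 to 0.63, edgeR FDR = 0.282) and 1.27 with 32-134D against hypoxic vehicle (95% interval -0.15 to 2.69, edgeR FDR = 0.123), and without hypoxic vehicle replicate 2 the latter was 1.99 and called (FDR = 0.0421). The near-identical copies LGALS9B and LGALS9C had 0 counts in every library, and reads shared with them make the LGALS9 count uncertain.

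NT5E (ENSG00000135318, chromosome 6, 85449584 to 85495791, + strand), the ectoenzyme that forms adenosine from AMP, was the member that fell under hypoxia. It was at 42.4, 40.5 and 43.2 CPM in normoxic vehicle, 7.18, 10.0 and 9.19 CPM in hypoxic vehicle, and 37.9, 34.7 and 29.1 CPM in 32-134D. No pair of groups overlapped, with 32-134D lying just under normoxic vehicle. NT5E fell 4.83-fold in hypoxic against normoxic vehicle, a log2 fold change of -2.27 ± 0.13 (SE, edgeR FDR = 2.23e-09), and rose 3.89-fold with 32-134D against hypoxic vehicle, 1.96 ± 0.12 (SE, edgeR FDR = 2.32e-08). Both calls held in every alternative run that could test NT5E, the log2 fold change ranging from -2.49 to -2.14 and from 1.82 to 2.15. In 32-134D against normoxic vehicle the log2 fold change was -0.31 (95% interval -0.57 to -0.06, edgeR FDR = 0.119), not called.

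ENTPD1 (ENSG00000138185, chromosome 10, 95711779 to 95869695, + strand), the ectoenzyme that acts ahead of NT5E on ATP and ADP, had few reads. It had 8, 2 and 22 reads in normoxic vehicle, 11, 6 and 12 in hypoxic vehicle, and 11, 13 and 9 in 32-134D. The groups overlapped and ENTPD1 was not called, with log2 fold changes of -0.80 under hypoxia (95% interval -1.67 to 0.08, edgeR FDR = 0.109) and 0.21 with 32-134D against hypoxic vehicle (95% interval -0.63 to 1.05, edgeR FDR = 0.694). The antisense gene ENTPD1-AS1, which overlaps ENTPD1, was at 17.4 ± 1.44 CPM in normoxic vehicle, 13.6 ± 2.18 in hypoxic vehicle and 17.1 ± 1.33 in 32-134D (SD, n = 3), and since the strand setting of the counting is not given in the sources used here, their reads cannot be told apart where the genes overlap.

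ADORA2B (ENSG00000170425, chromosome 17, 15944917 to 15975746, + strand), the low-affinity adenosine receptor, had the largest log2 fold change of the members under hypoxia. It was at 3.66, 3.30 and 4.62 CPM in normoxic vehicle, 22.4, 25.9 and 23.1 CPM in hypoxic vehicle, and 8.34, 8.62 and 9.19 CPM in 32-134D. No pair of groups overlapped, and 32-134D lay between the others in all 3 libraries. ADORA2B rose 5.86-fold in hypoxic against normoxic vehicle, a log2 fold change of 2.55 ± 0.14 (SE, edgeR FDR = 1.24e-09), and fell 2.73-fold with 32-134D against hypoxic vehicle, -1.45 ± 0.12 (SE, edgeR FDR = 2.04e-07). It stayed 2.15-fold above normoxic vehicle with 32-134D, at 1.10 ± 0.14 (SE, edgeR FDR = 0.000142).

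ADA (ENSG00000196839, chromosome 20, 44619522 to 44652233, - strand), which deaminates adenosine to inosine, was at 6.09, 5.34 and 5.60 CPM in normoxic vehicle, 6.07, 8.53 and 7.47 CPM in hypoxic vehicle, and 6.64, 7.17 and 15.8 CPM in 32-134D. As with CD47, 32-134D replicate 3 was far above the rest. ADA was not called, with log2 fold changes of 0.36 under hypoxia (95% interval -0.25 to 0.97, edgeR FDR = 0.313) and 0.41 with 32-134D against hypoxic vehicle (95% interval -0.14 to 0.97, edgeR FDR = 0.213), and the latter changed sign to -0.07 without 32-134D replicate 3. Against normoxic vehicle it was 0.77 (95% interval 0.17 to 1.37, edgeR FDR = 0.103), which DESeq2 put past the threshold (FDR = 0.0297). PKIG, on the other strand, overlaps ADA, and it was at 11.7 to 16.2 CPM.

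**Figure D3:**
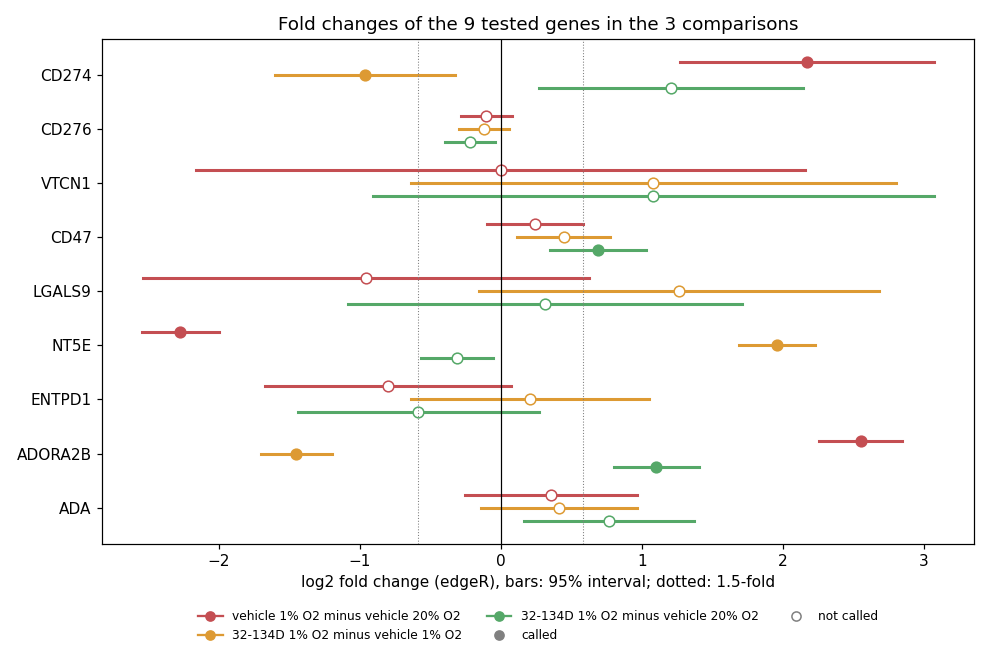
Log2 fold changes of the 9 tested members with their 95% intervals for hypoxic against normoxic vehicle (red), 32-134D against hypoxic vehicle (orange) and 32-134D against normoxic vehicle (green), filled where called and with dotted lines at 1.5-fold. NT5E (-2.27 and 1.96) and ADORA2B (2.55 and -1.45) have narrow intervals on opposite sides of 0, and VTCN1 and LGALS9 have wide ones that span 0.

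How far 32-134D returned the 3 members called under hypoxia can be described as a share of the distance between the vehicle means on the log2 CPM scale. A prior count of 2, scaled to library size, was added to every count. It narrows the distances most for genes with few reads, such as CD274, so the CD274 share depends on it. The share removed was 85.9 ± 8.50% for NT5E (SD, n = 3 libraries of 32-134D), 55.1 ± 2.71% for ADORA2B and 52.1 ± 23.2% for CD274. The 3 libraries spanned 76.6 to 93.3% for NT5E and 52.2 to 57.5% for ADORA2B, which did not overlap, and 33.0 to 77.9% for CD274, which overlapped both. These shares were not tested.

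Among 30 further checkpoint genes 19 were tested, and 6 were called higher and 3 lower in hypoxic against normoxic vehicle, where 39.7% of all genes were called, with a median log2 fold change of 0.32. Scaling by total library size turned that balance, to 5 higher and 7 lower. ICOSLG, which encodes a ligand of the T cell costimulator ICOS, rose by 2.22 ± 0.29 on the log2 scale (SE), TNFSF9, the ligand of 4-1BB, by 1.92 ± 0.16, and LGALS3, a galectin, by 1.23 ± 0.25. PVR, a ligand of TIGIT, was also called higher, at 1.18 ± 0.07, and so were LGALS1, though not with scaling by total library size, and VSIR, though not after thinning to the smallest library. TNFSF4, the ligand of OX40, was at -3.33 ± 0.22, and CD24, a ligand of Siglec-10, at -0.86 ± 0.14, both called lower. TDO2, which breaks down tryptophan, had 205 reads over normoxic vehicle and 5 over hypoxic vehicle, a depth-scaled ratio of 67.7 (95% counting interval 28.6 to 211). This interval leaves out the spread between libraries. TDO2 was called lower, at -5.97 ± 0.74 on the log2 scale (SE, edgeR FDR = 6.58e-08). With 32-134D against hypoxic vehicle 3 of the 19 were called higher and 5 lower, where 29.9% of all genes were called, with a median of -0.02, although scaling by total library size called 4 higher and 1 lower. TNFSF4 rose by 3.19 ± 0.22 on the log2 scale (SE). TDO2 had 217 reads against 5, a ratio of 43.9 (95% counting interval 18.5 to 137, again without the spread between libraries). In edgeR TDO2 rose by 5.29 ± 0.74 (edgeR FDR = 5.63e-07) and was called higher. CEACAM1, an adhesion molecule that restrains lymphocytes, rose by 0.97 ± 0.25. The CEACAM1 call rested on 32-134D replicate 3, at 137 CPM against 57.5 and 56.4 in the other libraries of that group and 39.7 to 45.3 in hypoxic vehicle, and without it the log2 fold change was 0.43, under the fold threshold. LGALS1 was at -0.87 ± 0.09, PVR at -0.77 ± 0.07 and ICOSLG at -0.75 ± 0.23, all called lower. With scaling by total library size PVR (-0.58) and ICOSLG (-0.56) were not called, and ICOSLG was -0.52 and not called without hypoxic vehicle replicate 1 (FDR = 0.111) or without 32-134D replicate 1 (FDR = 0.104), and not called after thinning (FDR = 0.0502). Against normoxic vehicle 3 of the 19 were called with 32-134D, where 3.52% of all genes were called, all of them higher, namely ICOSLG at 1.47 ± 0.30, TNFSF9 at 1.27 ± 0.16 and LGALS3 at 1.20 ± 0.25. The ICOSLG call was lost after thinning (FDR = 0.0730) and that of LGALS3 without normoxic vehicle replicate 3 (FDR = 0.0613). LGALS3 also varied widely between the 32-134D libraries, at 17.9 ± 8.37 CPM (SD) against 7.91 ± 0.989 in normoxic vehicle, so the size of its difference is uncertain.

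The rest of the adenosine pathway also moved in both directions. Of 35 further genes 28 were tested, and 6 were called higher and 7 lower in hypoxic against normoxic vehicle, near the 39.7% of all genes called, with a median log2 fold change of -0.29. Scaling by total library size gave 4 higher and 10 lower. Among enzymes acting inside the cell, AMPD3, which deaminates AMP, rose by 2.43 ± 0.13 on the log2 scale (SE), and NT5C3A, a cytosolic nucleotidase, rose by 1.19 ± 0.10. SLC28A1, a concentrating nucleoside transporter, rose by 1.75 ± 0.36, and the equilibrative transporter SLC29A1 was called higher as well, at 0.94 ± 0.08. Called lower were the ectoenzymes ENPP3 at -3.71 ± 0.47 and ENTPD8 at -1.29 ± 0.22, and DPP4, which can hold ADA at the cell surface, at -1.28 ± 0.29. With 32-134D against hypoxic vehicle 5 were called higher and 5 lower, where 29.9% of all genes were called, with a median of 0.20. ENPP3 rose by 3.08 ± 0.46 on the log2 scale (SE), ADK, which phosphorylates adenosine back to AMP, by 1.00 ± 0.12, and the ectoenzyme ENPP1 by 0.74 ± 0.08. ENPP3 varied widely between the 32-134D libraries, at 3.60 ± 2.06 CPM (SD) with 27 to 175 reads. It had 9 to 18 reads per library in hypoxic vehicle, so the size of its rise is uncertain. SLC28A1 at -2.64 ± 0.37, AMPD3 at -1.29 ± 0.12 and the ectoenzyme ENTPD2 at -0.83 ± 0.10 were called lower. Against normoxic vehicle AMPD3 was the only one of the 28 called, at 1.14 ± 0.14, where 3.52% of all genes were called.

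The other adenosine receptors were scarcer than ADORA2B. ADORA2A was at 0.957 ± 0.358 CPM in normoxic vehicle (SD, n = 3), 1.68 ± 0.355 in hypoxic vehicle and 1.13 ± 0.204 in 32-134D, and it was not called (edgeR FDR = 0.0790 and 0.111 in the main comparisons). ADORA1 was at or below 0.381 CPM on average in every group and was not called, and ADORA3 had 0 counts in every library.

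**Figure D4:**
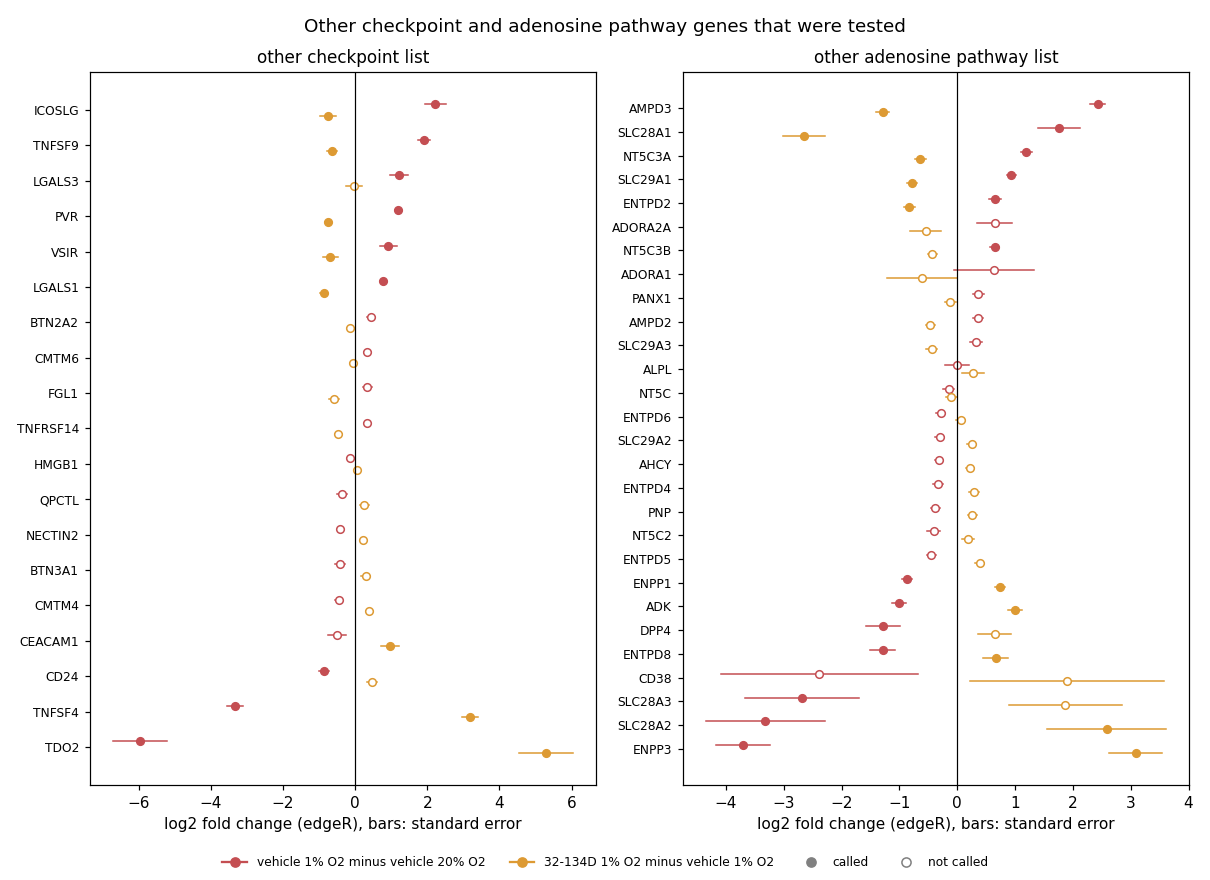
Log2 fold changes with standard errors of the 19 further checkpoint genes (left) and the 28 further adenosine pathway genes (right) that were tested, for hypoxic against normoxic vehicle (red) and 32-134D against hypoxic vehicle (orange), filled where called and ordered by the former. TNFSF4 (-3.33 and 3.19) and ENPP3 (-3.71 and 3.08) lie far out at the lower end, and ICOSLG (2.22) and AMPD3 (2.43) are at the top.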

How the data were processed

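RNA from 9 cultures was sequenced on an Illumina NovaSeq instrument. The authors deposited unnormalized read counts for each gene in 1 table. Reads had been checked with FastQC, trimmed with Bbduk, aligned with STAR to GRCh38 and assigned to Ensembl genes with featureCounts, and the authors compared groups with DESeq2. The submitters' processing notes also name MultiQC. Tool versions and the strand setting are not given in the sources used here. The 9 columns were matched to the samples through the titles, with 0 left unmapped, and every row named a gene. Replicate libraries differed by more than counting error, so none was a duplicate.

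The counts were scaled by TMM and fitted with edgeR 4.0.16 in R 4.3.3, with group as the only factor. Genes with a summed count of at least 10 were tested, and p-values were adjusted over all of them. Standard errors and 95% intervals come from the quasi-dispersion and the information matrix of each gene. The common biological coefficient of variation was 10.5%. Positions and exon lengths come from GENCODE version 29 on GRCh38, which matched 22265 of the tested genes, and promoter sequence from RefSeq (GRCh38.p14). The procedure was also run on simulated counts, with few changed genes, balanced in direction, and the same spread for every gene. That setting does not cover the wide changes, the dependence on scaling or the outlying libraries of these data.

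The members and the lists were chosen with earlier results of these data known. All members are named, and from the further lists up to 3 called genes per direction and comparison with the largest change and a mean of at least 1 CPM in the higher group. PVR, LGALS1, VSIR and SLC29A1 under hypoxia and the other adenosine receptors were named after their values were seen. Alternatives were DESeq2 1.42.0, other scalings, filters and fold thresholds, a fit of only 2 groups, thinning, a block on the replicate number and the omission of each library. Leaving out 2 libraries together was added after seeing the data. Total counts of 6013980 to 40549699 limit the precision of genes with few reads.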

Additional observations from a re-analysis of the deposited data

How the results depend on the processing

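Among the recomputed values 587 had the sign and the call first reported or, for counts and shares, lay near the value reported, 15 counts moved by more than 1.5 times, 15 log2 fold changes changed sign, 12 came past the threshold and 9 lost it. Scaling by total library size shifted the median of all genes by -0.21 under hypoxia and by 0.19 for 32-134D against hypoxic vehicle, and the share of calls that were higher was 34.5% in place of 49.0% and 72.02% in place of 54.2%. Under that scaling CD276 and CD47 with 32-134D against hypoxic vehicle were 0.071 and 0.63 (the latter called), VTCN1 and ENTPD1 under hypoxia -0.20 and -1.002 (ENTPD1 called, FDR = 0.0470), and 5 further checkpoint genes were called with 32-134D.

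With DESeq2, CD274 with 32-134D against hypoxic vehicle was -0.91, VTCN1 under hypoxia -0.10, and ADA with 32-134D against normoxic vehicle 0.80. VTCN1 was -0.040 with RLE scaling, and ADA was 0.79 with a summed count of at least 1. Fitting only 2 groups gave CD47 0.69 (FDR = 0.0575) with 32-134D against normoxic vehicle and 1 member called. Thinning to the smallest library gave -0.92 for CD274 (FDR = 0.200), 5.13 for LGALS9 (FDR = 0.0104) and -0.40 for ENTPD1 with 32-134D against hypoxic vehicle, and 5 further checkpoint genes called. The cause of these differences was not tested.

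A fold threshold of 2 left 1 member called with 32-134D against normoxic vehicle, and 2 further checkpoint and 4 further adenosine genes against hypoxic vehicle. No fold threshold gave 17 and 23 further genes under hypoxia and 13 and 18 with 32-134D against hypoxic vehicle. The share of all genes called moves with these settings too and was not worked out for any alternative run. The counts called under the alternatives in this section therefore do not set the members or lists apart from other genes. Asking for 10 counts or more in each library leaves fewer genes to test and gave 7 adenosine genes under hypoxia, and 4 checkpoint and 6 adenosine genes with 32-134D.

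Leaving out each library in turn gave 1 to 3 members called with 32-134D against normoxic vehicle. The log2 fold change with 32-134D against hypoxic vehicle ran from -1.15 to -0.79 for CD274, 0.16 to 0.64 for CD47, 0.92 to 1.99 for LGALS9 and -0.072 to 0.70 for ADA. Against normoxic vehicle it ran from 1.02 to 1.40 for CD274, 0.40 to 0.83 for CD47, 0.27 to 1.00 for ADA and -0.01 to 1.16 for LGALS9, and for VTCN1 under hypoxia from -1.01 to 0.78. Without normoxic vehicle replicate 2 and 32-134D replicate 3 together, a choice made after seeing the data, CD274, CD47 and LGALS9 against normoxic vehicle were 1.58, 0.38 and -0.25, ADA against normoxic and hypoxic vehicle 0.25 and -0.072, and VTCN1 under hypoxia -0.20.

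Replicates with the same number did not deviate together (r from -0.14 to 0.06), so the numbers were not used as pairs. A replicate block gave 3, 3 and 2 members called in the 3 comparisons and changed no call on a member, and with it 9 further checkpoint and 10 further adenosine genes were called with 32-134D against hypoxic vehicle.

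Depth limits CD274, VTCN1, LGALS9 and ENTPD1, whose floor of 3 counts lies between 0.0795 and 0.471 CPM. No statement on protein can be made from these counts, and without 32-134D at 20% O2 an action of the compound apart from hypoxia cannot be told apart from one on the response to it.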

Other observations

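PDCD1, which encodes the receptor PD-1 that CD274 engages and which is best known from T cells, was counted in these cultures. It was at 12.4, 11.1 and 11.8 CPM in normoxic vehicle, 5.99, 7.83 and 6.53 CPM in hypoxic vehicle, and 9.90, 10.5 and 12.7 CPM in 32-134D. Hypoxic vehicle lay under every library of the other groups. PDCD1 fell by 0.81 on the log2 scale under hypoxia (SE 0.14, edgeR FDR = 0.000172) and rose by 0.71 with 32-134D against hypoxic vehicle (SE 0.14, edgeR FDR = 0.00053), while PTPRC, carried by nearly all leukocytes, had at most 3 counts in every library. SIRPA, the receptor of CD47, was at 4.80 to 8.51 CPM over the 9 libraries and was not called in any comparison.

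By Pearson's r of log2 CPM over the 9 libraries, the genes most like CD274 among 14539 were ZNF808 (r = 0.979), ZC3H12C (r = 0.975) and KLHL42 (r = 0.973). Those most like ADORA2B were SDE2 (r = 0.998), EPC1 (r = 0.998) and UBQLN1 (r = 0.997). The libraries fall into 3 groups and share their scaling, and 865 and 3233 genes had an r above 0.9 with CD274 and ADORA2B, so a high r is common here. This is a description only.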
